A study of Mus musculus with 30 samples.

Results

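The interferon gamma GTPases and Irf1 were read from 30 whole-transcriptome arrays of mouse EL4 tumours. The set holds 9 listed genes: the transcription factor Irf1, the guanylate binding proteins Gbp2, Gbp3, Gbp5, Gbp6 and Gbp7, and the immunity-related GTPases Irgm1, Igtp and Iigp1. Members were found by symbol through the array's probe annotation, taking for each symbol its brightest row over all arrays. Of 19938 genes with an array row of their own, 6 are members (Irf1, Gbp3, Gbp5, Gbp7, Irgm1 and Iigp1). The other 3 have no row of their own. Gbp2 shares its row with Gbp2b, Gbp6 shares its row with Gbp4, Gbp8, Gbp9, Gbp10 and Gbp11, and Igtp shares its row with Irgm2. Values of those 3 rows belong to the shared signal and not to the member alone, and they are given beside the 6 but not counted with them.

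EL4 is a mouse T cell lymphoma line. Tumours grew under the skin from 500000 injected cells, in mice given an antibiotic cocktail for 3 weeks beforehand (ABX) or left on plain water (H2O). On day 7 every group received oxaliplatin, a platinum drug that damages DNA, at 10 mg per kg, and tumours were taken 0, 6 or 18 h later. The 6 groups are therefore ABX and H2O at 0 h, ABX and H2O at 6 h, and ABX and H2O at 18 h, with 5 arrays each. The titles begin with "WT", and the labels give no strain, age or sex and do not name the antibiotics. The labels do not say that each array came from a separate mouse, so each p-value reflects how far these samples scatter, which may be partly technical. No tumours without the drug were sampled at 6 or 18 h, so a change with time and a change with the drug cannot be told apart. Sample numbers run in blocks by group, so any effect of handling order and the group cannot be told apart either.

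Interferon gamma, made mainly by NK cells and activated T cells, binds a receptor of the chains Ifngr1 and Ifngr2. Its signal acts through the gamma-activated sequence (GAS) in promoters and switches on Irf1, which then binds interferon-stimulated response elements (ISRE) in many of the same genes. Guanylate binding proteins and immunity-related GTPases are among the most strongly induced proteins in mouse cells and attack vacuoles and membranes of intracellular pathogens. Their RNA is widely used as a readout of interferon gamma exposure.

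The promoters of the members are shown because both kinds of element can be read in them. Windows of 250 bases before to 50 bases after the annotated transcript start came from RefSeq (mouse GRCm38.p6), with 7 of the 9 members used. In the stretches below, written 5′ to 3′ along the gene's strand, capitals mark a match to the GAS motif TTCNNNGAA or to the ISRE core GAAANNGAAA, in either orientation (the reverse complement of the core is TTTCNNTTTC), and overlapping ISRE cores run together. The GAS motif reads the same on both strands.
Irf1, chr11:53769914-53769942, plus strand: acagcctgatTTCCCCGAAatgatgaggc
Gbp2, chr3:142620594-142620623, plus strand: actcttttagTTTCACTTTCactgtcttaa
Gbp3, chr3:142559989-142560024, plus strand: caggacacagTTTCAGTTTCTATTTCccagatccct
Gbp5, chr3:142496872-142496900, plus strand: tggccgttatTTCTCAGAAccaagcacag
Gbp7, chr3:142530220-142530302, plus strand: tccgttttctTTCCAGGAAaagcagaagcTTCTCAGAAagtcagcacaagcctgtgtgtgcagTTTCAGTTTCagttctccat
Irgm1, chr11:48871425-48871460, minus strand: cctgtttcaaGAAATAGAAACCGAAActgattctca
Igtp, chr11:58199501-58199541, plus strand: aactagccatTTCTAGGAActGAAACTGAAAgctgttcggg

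All 7 genes held at least 1 match, where 11.3% of 32851 windows in the table did. Members are counted by gene, over all windows of the gene, and the background by window, so the shares here are not strictly alike. GAS was found in 4 of the 7 (Irf1, Gbp5, Gbp7 and Igtp), against 8.3% of all windows. The ISRE core was found in 6 of the 7, all but Irf1, against 3.44% of all windows. Gbp5, Gbp7 and Igtp held both, against 0.454% of all windows. Irf1 held a single GAS that begins 90 bases before the transcript start, and Gbp7 held a pair of GAS motifs that begin 106 and 87 bases before it. Gbp5 has a further GAS 245 bases and an ISRE core 165 bases before its start, outside the printed stretch. Gbp3 and Irf1 each have a second annotated start, and no match was found in either of those windows. These are matches of letters and were not tested as binding sites.

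**Figure D1:**
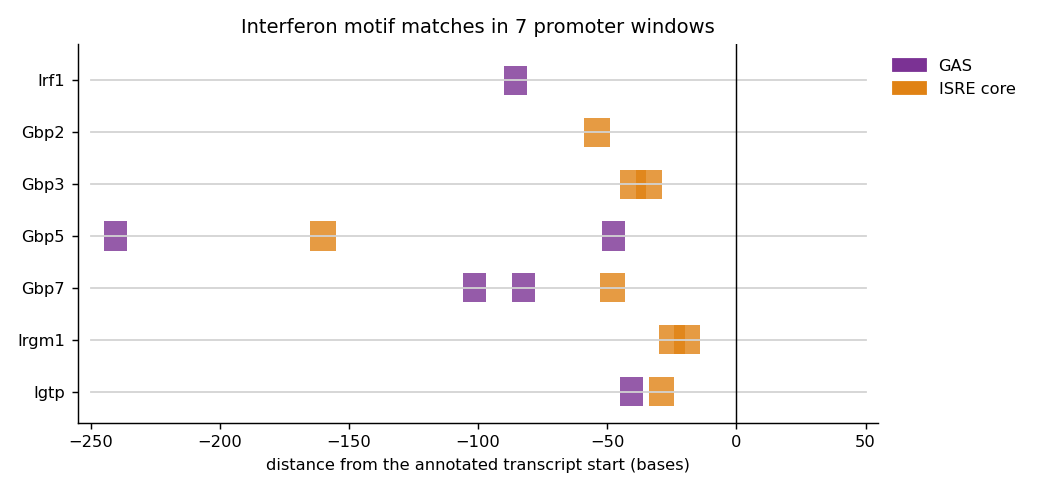
Positions of motif matches in the promoter windows of 7 members, from 250 bases before to 50 bases after the annotated transcript start (horizontal axis, bases). Purple blocks are GAS and orange blocks are ISRE cores, and most matches begin within 106 bases before the start.

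All 9 measured T cell markers, as the label of an EL4 tumour would have it, lay above the middle of all genes by mean signal, from the 54.4th percentile for Cd2 and the 60.9th for Cd247 to the 99.1st for Lat. Probes differ between rows, so such percentiles are a rough description. Values are log2 expression as deposited, and array medians lay between 7.253 and 7.365. In a bulk tumour, fewer cells of a type and less RNA per cell cannot be told apart.

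Irf1, the transcription factor at the top of the set, had the smallest span of group means among the 6 members. At 0 h it was at 9.15, 9.48, 9.38, 9.95 and 9.32 on the 5 ABX arrays and at 9.14, 9.52, 9.40, 9.08 and 9.48 on the 5 H2O arrays. At 6 h it was at 9.39, 9.34, 9.23, 9.11 and 9.54 in ABX tumours and at 9.58, 9.75, 9.42, 9.57 and 9.84 in H2O tumours. At 18 h it was at 9.02, 10.41, 9.94, 9.43 and 9.90 in ABX tumours and at 9.64, 10.24, 9.27, 10.50 and 9.89 in H2O tumours. At 0 and 6 h the arrays of a group kept close together, apart from ABX 0 h array 4. At 18 h both groups spread out: ABX array 1 lay below every ABX 0 h array, and H2O array 3 lay within the H2O range at 0 h. The difference of 18 h minus 0 h in H2O tumours was 0.58 ± 0.20 (SE), a 1.5-fold difference that just missed the threshold of an adjusted p of 0.05 (limma adjusted p = 0.0518). In ABX tumours it was 0.28 ± 0.20 (adjusted p = 0.709). Irf1 has a second row with a narrow range at 18 h, and with the mean of both rows the 18 h minus 0 h difference in H2O tumours was 0.34 (adjusted p = 0.0569) and ABX minus H2O at 6 h was -0.16 (adjusted p = 0.445).

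Gbp5, a guanylate binding protein known for promoting assembly of the NLRP3 inflammasome, was the only one of the 6 members to pass the test in any comparison. At 0 h it was at 6.33, 6.51, 6.52, 7.31 and 6.38 in ABX tumours and at 6.27, 6.55, 6.6, 6.28 and 6.80 in H2O tumours. At 6 h it was at 6.62, 6.31, 6.27, 5.76 and 7.17 in ABX tumours and at 7.02, 7.28, 6.69, 6.98 and 7.39 in H2O tumours. At 18 h it was at 6.24, 8.81, 7.79, 6.54 and 7.44 in ABX tumours and at 6.99, 7.95, 6.48, 8.71 and 7.78 in H2O tumours. In H2O tumours 4 of the 5 arrays at 18 h lay above every 0 h array, and array 3 lay among them. Gbp5 rose by 1.08 ± 0.37 on the log2 scale between 0 and 18 h in H2O tumours (2.12-fold, 95% interval 0.32 to 1.84, limma adjusted p = 0.0487). The same difference in ABX tumours was 0.75 ± 0.37 (1.68-fold, adjusted p = 0.457). The test of the difference between both time courses gave -0.33 ± 0.52 (adjusted p = 0.952), so the rise was not shown to differ with antibiotics. The Gbp5 call sits at the threshold. It was lost when array medians were subtracted and with quantile normalisation (adjusted p = 0.0705), and for the 6 members the number called went between 0 and 5 as single arrays were left out.

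Gbp3 and Gbp7, which lie beside Gbp5 in the same gene cluster on chromosome 3, had smaller differences between 0 and 18 h in H2O tumours. Gbp3 averaged 7.32 ± 0.35 in ABX and 7.17 ± 0.17 in H2O tumours at 0 h (SD, n = 5 each), 7.18 ± 0.22 in ABX and 7.62 ± 0.22 in H2O tumours at 6 h, and 7.63 ± 0.64 in ABX and 7.79 ± 0.60 in H2O tumours at 18 h. At 6 h it ranged from 6.98 to 7.54 in ABX tumours and from 7.39 to 7.86 in H2O tumours. The H2O 6 h arrays all lay above the H2O 0 h arrays, which ended at 7.38, so Gbp3 was the only one of the 6 members whose groups did not overlap in that comparison (2.99% of all genes had every H2O 6 h array above every H2O 0 h array). Its difference there, 0.46 ± 0.24, did not pass (adjusted p = 0.536). That SE comes from an error shared with the widely spread 18 h groups. With only the groups of the comparison fitted the limma adjusted p was 0.0628, which did not pass either. Gbp7 averaged 8.06 ± 0.37 in ABX and 8.14 ± 0.16 in H2O tumours at 0 h, 7.83 ± 0.34 in ABX and 8.38 ± 0.10 in H2O tumours at 6 h, and 8.42 ± 0.74 in ABX and 8.65 ± 0.62 in H2O tumours at 18 h. Differences of 18 h minus 0 h in H2O tumours were 0.63 ± 0.24 for Gbp3 (adjusted p = 0.0885) and 0.50 ± 0.27 for Gbp7 (adjusted p = 0.243).

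The rows shared by Gbp2 and by Gbp6 were also higher by mean at 18 h than at 0 h. The row of Gbp2 and Gbp2b averaged 9.10 ± 1.27 in ABX and 9.54 ± 1.11 in H2O tumours at 18 h, against 8.51 ± 0.54 in ABX and 8.28 ± 0.37 in H2O tumours at 0 h. It spanned 7.38 to 10.62 in ABX and 7.89 to 10.83 in H2O tumours at 18 h, a 9.5-fold range among ABX tumours and a 7.7-fold range among H2O tumours. The row of Gbp6 and its 5 relatives averaged 8.42 ± 0.94 in ABX and 8.73 ± 0.88 in H2O tumours at 18 h, against 7.86 ± 0.54 in ABX and 7.76 ± 0.30 in H2O tumours at 0 h. In a fit that kept shared rows, 18 h minus 0 h in H2O tumours was 1.26 ± 0.46 for the Gbp2 row (adjusted p = 0.0645) and 0.97 ± 0.36 for the Gbp6 row (adjusted p = 0.0683), so neither passed.

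Among the immunity-related GTPases, Iigp1, an effector that coats and disrupts the vacuoles of parasites such as Toxoplasma, varied most. At 0 h it was at 6.85, 6.99, 7.03, 8.17 and 6.65 in ABX tumours and at 6.72, 7.22, 7.04, 6.77 and 7.68 in H2O tumours. At 6 h it was at 6.76, 6.79, 6.6, 6.40 and 7.79 in ABX tumours and at 7.73, 8.07, 7.39, 7.48 and 7.97 in H2O tumours. At 18 h it was at 6.08, 9.55, 8.53, 6.80 and 8.12 in ABX tumours and at 7.43, 8.80, 6.21, 9.59 and 8.34 in H2O tumours. Both the lowest and the highest values of Iigp1 in the series were found at 18 h, an 11.0-fold range among ABX tumours and a 10.4-fold range among H2O tumours. The mean difference of 18 h minus 0 h was 0.68 ± 0.51 in ABX tumours (adjusted p = 0.741) and 0.99 ± 0.51 in H2O tumours (adjusted p = 0.229).

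Irgm1, a regulatory member that keeps effector GTPases inactive on the cell's own membranes, averaged 8.45 ± 0.32 in ABX and 8.39 ± 0.17 in H2O tumours at 0 h. At 6 h it averaged 8.36 ± 0.27 in ABX and 8.81 ± 0.16 in H2O tumours, and at 18 h 8.83 ± 0.60 in ABX and 8.99 ± 0.63 in H2O tumours. The row of Igtp and Irgm2, also regulatory GTPases, averaged 8.34 ± 0.83 in ABX and 8.63 ± 0.76 in H2O tumours at 18 h, and 7.99 ± 0.50 in ABX and 7.85 ± 0.24 in H2O tumours at 0 h. Neither passed for 18 h against 0 h in H2O tumours, at 0.60 ± 0.24 for Irgm1 (adjusted p = 0.102) and 0.78 ± 0.32 for the Igtp row (adjusted p = 0.11).

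**Figure D2:**
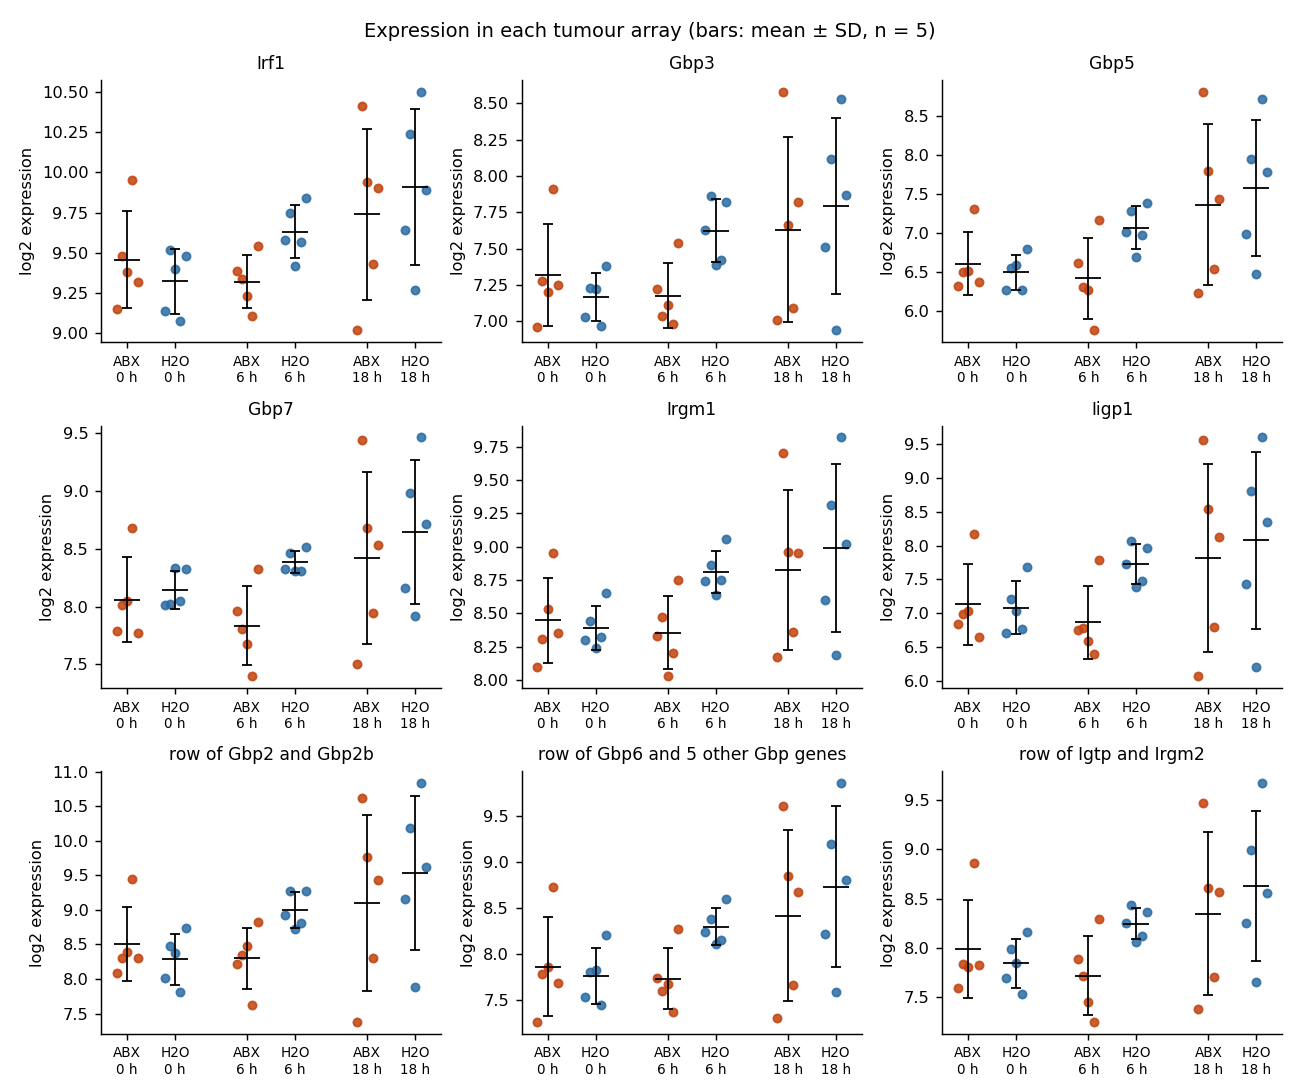
Log2 expression (vertical axis) of each member or shared row on every array, with ABX in red left of H2O in blue at 0, 6 and 18 h. Bars are mean ± SD over 5 arrays, and in every panel the arrays at 18 h are spread most widely, with Iigp1 between 6.08 and 9.55 in ABX and between 6.21 and 9.59 in H2O tumours.

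The order of the group means was alike across the set. In all 9 rows the H2O 18 h mean was the highest, followed by ABX 18 h and H2O 6 h, and the groups ABX 0 h, H2O 0 h and ABX 6 h took the lower ranks. Neighbours in this order were not separated: ABX and H2O ranges at 18 h overlapped widely, and the H2O 6 h range lay inside the ABX 18 h range in 9 of 9 rows. From highest to lowest group mean the span was 0.59 for Irf1 and up to 1.20 for Iigp1 among the 6 members.

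In H2O tumours all 6 members had higher means later than at 0 h. At 18 h against 0 h the 6 differences ran from 0.50 to 1.08, with a median of 0.61, while the median over all genes was 0.01. Of the 6, 1 passed the test and was higher (Gbp5), where 14.1% of all genes passed and 6.18% passed in that direction. At 6 h against 0 h the 6 differences ran from 0.24 to 0.64, with a median of 0.44, and 0 of 6 passed, where 1.11% of all genes passed. At 18 h against 6 h they ran from 0.17 to 0.51 and 0 passed, where 9.58% of all genes did. Without H2O 18 h array 4 that last direction was lost in Gbp3 (-0.01), Irgm1 (-0.03) and Iigp1 (-0.03).

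Single arrays decided how many members passed for 18 h against 0 h in H2O tumours. H2O 18 h array 3 held the lowest and array 4 the highest value of the group in 9 of 9 rows. Without array 3, 5 of the 6 members passed (all but Gbp7), with differences between 0.68 for Gbp7 and 1.45 for Iigp1, where 11.6% of all genes passed. Without array 4, 0 of the 6 passed, with differences between 0.30 for Gbp7 and 0.80 for Gbp5 (adjusted p between 0.153 and 0.498), where 13.7% of all genes passed. Both arrays were singled out by their values, so neither count is a test, and both arrays were kept in the fit reported.

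In ABX tumours no member was shown to change. All 6 members had a lower mean at 6 h than at 0 h, by -0.09 for Irgm1 to -0.27 for Iigp1 with a median of -0.16, and 0 of 6 passed. In that comparison 0% of all genes passed, although 2011 had an unadjusted p under 0.05. The size of these differences depended on the arrays kept. Without ABX 0 h array 4 the 6 differences lay between -0.07 for Gbp7 and 0.03 for Irgm1. Without 3 arrays with high skin or muscle markers (H2O 6 h array 1 and ABX 6 h arrays 1 and 5) they lay between -0.21 for Irgm1 and -0.54 for Iigp1. At 18 h against 0 h the 6 differences ran from 0.28 to 0.75 with a median of 0.37 and 0 of 6 passed, where 1.22% of all genes did. At 18 h against 6 h they ran from 0.42 for Irf1 to 0.95 for Iigp1 with a median of 0.53. In that comparison 0 of 6 passed, where 2.12% of all genes did. An unadjusted p under 0.05 was found for 3 of the 6 (Irf1, Gbp5 and Gbp7) and for 3196 of all 19938 genes.

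Group means of ABX and H2O tumours stood farthest apart at 6 h. All 6 members were lower in ABX than in H2O tumours at 6 h by group mean, by -0.31 for Irf1 to -0.86 for Iigp1, with a median of -0.50 against 0.01 over all genes. None of the 6 passed (adjusted p between 0.248 and 0.395), where 3.77% of all genes did. The 95% intervals ran from -1.91 to 0.19 for Iigp1, from -1.41 to 0.11 for Gbp5, from -0.95 to 0.06 for Gbp3, from -0.95 to 0.04 for Irgm1 and from -0.72 to 0.10 for Irf1. Gbp7 had the smallest p of the set, at -0.55 ± 0.27 (unadjusted p = 0.0484, adjusted p = 0.248). These intervals and SEs use an error shared by all groups, which the wide spread at 18 h enlarges. With only the groups of the comparison fitted, the limma adjusted p was 0.125 for Gbp7 and 0.143 for Gbp3, Irgm1 and Iigp1. For Irf1 it was 0.172, and still none of the 6 passed.

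Only ABX array 5 overlapped the H2O arrays at 6 h. ABX arrays 1 to 4 lay below every H2O array at 6 h in 6 of the 6 members and in 9 of 9 rows, where 6.93% of all genes had that order. Array 5 was singled out because of these values, so this count describes the arrays and is not a test. Gbp7 shows it: it was at 7.96, 7.81, 7.68, 7.40 and 8.32 in ABX tumours and at 8.32, 8.46, 8.31, 8.31 and 8.51 in H2O tumours at 6 h. Without array 5 the differences were between -0.36 for Irf1 and -1.09 for Iigp1, and still 0 of the 6 passed (adjusted p between 0.132 and 0.279), where 7.12% of all genes passed. ABX 6 h array 5 also had the highest skeletal muscle marker level of the series, a mean of 10.48 over 10 markers, and the highest level of its group for macrophage (9.79 over 12 markers), NK and cytotoxic cell (6.84), dendritic cell (7.28), endothelial (8.75) and T cell markers (10.60). Keratinocyte markers were highest on array 1 of both 6 h groups, at 9.01 in ABX (group median 7.37) and 9.12 in H2O tumours (group median 7.15). The part of all these markers in the member values was not tested.

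At 18 h the 6 differences of ABX minus H2O were smaller, between -0.16 and -0.26 with a median of -0.19, and 0 of 6 passed (adjusted p between 0.76 and 0.882), where 7.85% of all genes did. The widest 95% interval, for Iigp1, ran from -1.31 to 0.79. The direction at 18 h depended on single arrays: without ABX array 1 the differences lay between -0.003 and 0.17, with 4 of 6 above 0 (Irf1, Gbp5, Irgm1 and Iigp1), and without H2O array 4 they were above 0 in Gbp3, Gbp5, Irgm1 and Iigp1. At 0 h the differences lay between -0.08 for Gbp7 and 0.16 for Gbp3, and 0 of 6 passed, where 0.0903% of all genes did. Without ABX 0 h array 4, Gbp5, Irgm1 and Iigp1 turned below 0 there. Averaged over the 3 times the 6 differences were between -0.12 and -0.36 and 0 of 6 passed, where 6.65% of all genes did.

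The tests of unequal time courses gave no call either. For ABX against H2O in the change between 0 and 6 h, the 6 differences were -0.44 for Irf1, -0.60 for Gbp3, -0.76 for Gbp5, -0.47 for Gbp7, -0.52 for Irgm1 and -0.91 for Iigp1. None passed (adjusted p between 0.56 and 0.685), and 0% of all genes did, although 1964 had an unadjusted p under 0.05. For the change between 0 and 18 h the 6 were between -0.15 and -0.33 (adjusted p between 0.878 and 0.982), where 0.105% of all genes passed, and leaving out ABX 18 h array 1 or H2O 18 h array 4 turned both Gbp7 and Iigp1 above 0.

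**Figure D3:**
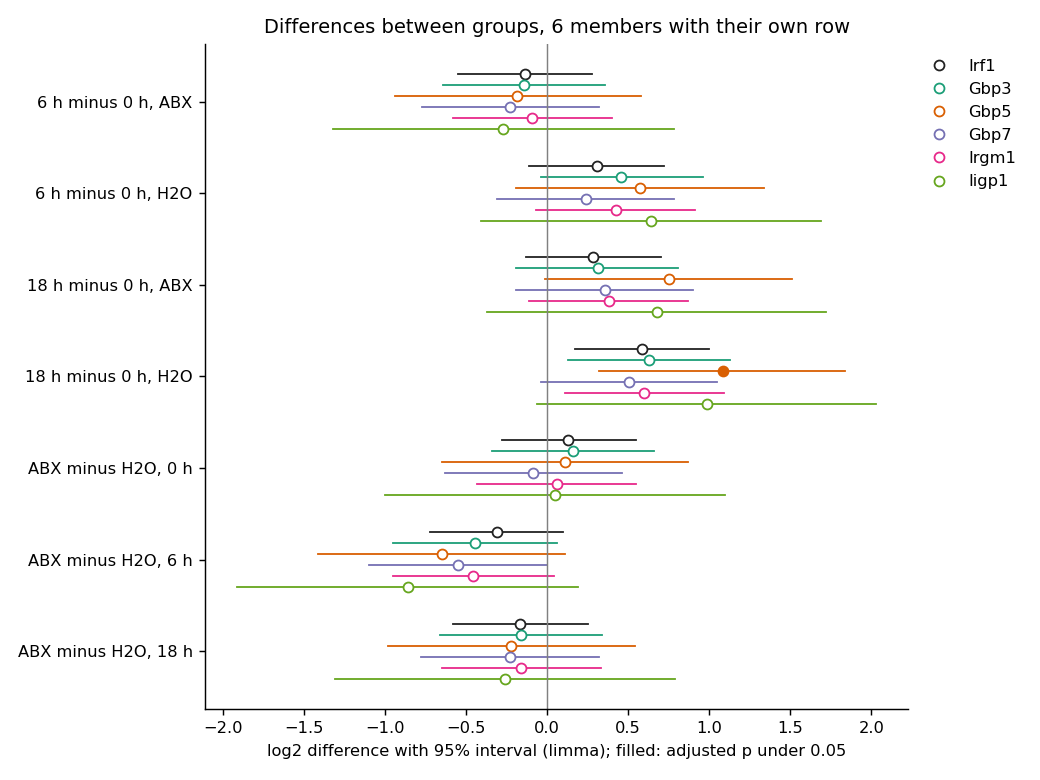
Log2 differences between groups (horizontal axis) with 95% intervals for the 6 members with their own row, by comparison. Filled points passed an adjusted p of 0.05, which only Gbp5 did for 18 h minus 0 h in H2O tumours (1.08, interval 0.32 to 1.84).

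The members varied more between arrays of the same group than most genes did. Residual SDs were between 0.34 for Irf1 and 0.86 for Iigp1, at the 98.0th to the 99.8th percentile of all genes, whose median was 0.115. The 6 groups accounted for 24.5% of the variance of Iigp1 and 38.3% of that of Gbp5, with the other members between, against a median of 24.7% over all genes. Across the 9 rows the median SD was 0.40 in ABX and 0.23 in H2O tumours at 0 h, 0.34 in ABX and 0.20 in H2O tumours at 6 h, and 0.83 in ABX and 0.76 in H2O tumours at 18 h. The median SD of all genes stayed between 0.08 and 0.135 in the 6 groups. At 18 h the 6 members stood between the 99.4th and the 99.9th percentile of SD in both groups. Because 1 error was shared by all groups in the fit, it understates the spread at 18 h for these genes. The same error overstates their spread at 0 and 6 h, in ABX and in H2O tumours.

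The same arrays were high or low in nearly every row. At 18 h, ABX array 2 was the highest and array 1 the lowest in 9 of 9 rows, and H2O array 4 was the highest and array 3 the lowest in 9 of 9 rows. At 6 h, ABX array 5 was the highest in 9 rows and H2O array 5 in 6 rows. At 0 h, ABX array 4 was the highest in 9 rows and H2O array 5 in 7 rows. The mean of the 6 members, each relative to its own mean over 30 arrays, ran from -0.51 to 0.45 in ABX and from -0.47 to 0.01 in H2O tumours at 0 h. At 6 h it ran from -0.74 to 0.14 in ABX and from -0.07 to 0.39 in H2O tumours, and at 18 h from -0.71 to 1.37 in ABX and from -0.54 to 1.39 in H2O tumours. The highest ABX and the highest H2O array at 18 h had nearly the same level.

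Over the 30 arrays the 36 pairs among the 9 rows had Pearson correlations between 0.939 (Gbp3 with Gbp7) and 0.982 (the Gbp2 and Gbp6 rows), with a median of 0.966. With the group means removed the range was 0.929 to 0.98, so arrays of the same group differed along the same line. Arrays are shared by all pairs, and rows of related genes may share signal from like sequences, so these are descriptions of the arrays.

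**Figure D4:**
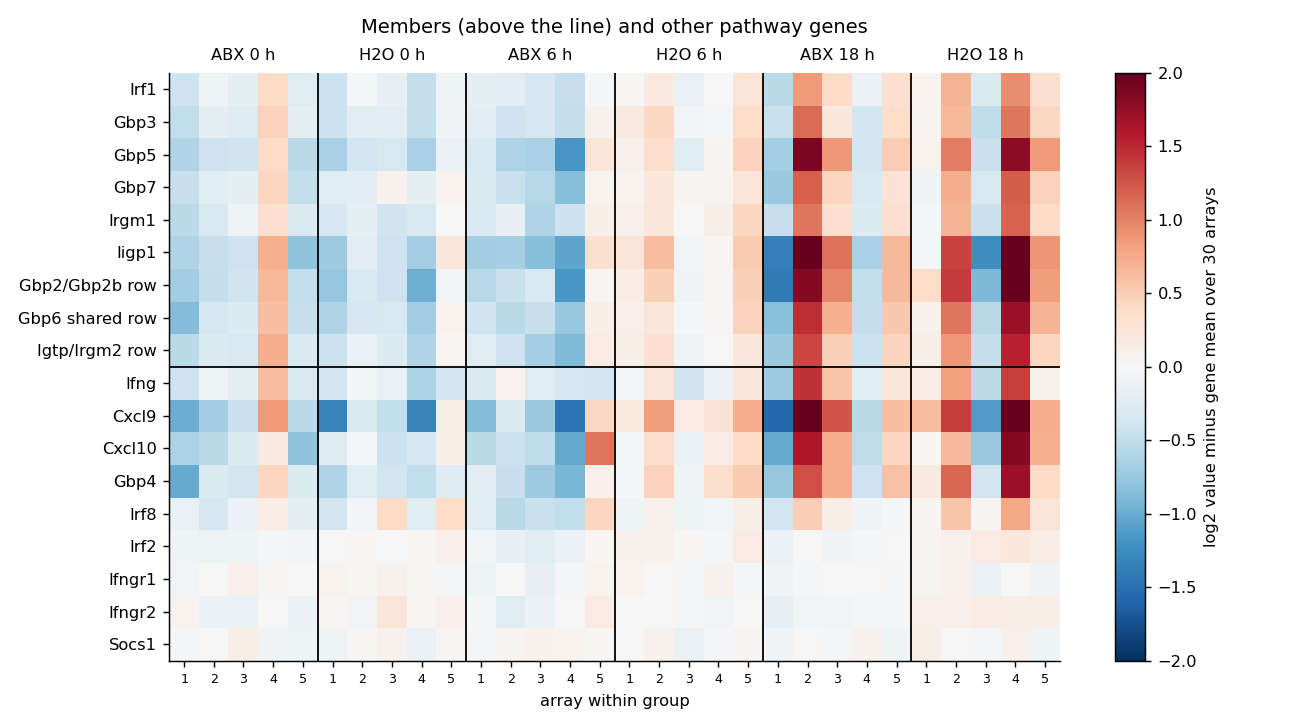
Log2 value minus the gene's mean over 30 arrays (colour, red above and blue below) for the members, above the line, and for other interferon gamma pathway genes, in columns by array with ABX left of H2O at each time. The columns of ABX 18 h array 2 and H2O 18 h array 4 are red in all members and in Ifng, Cxcl9, Cxcl10, Gbp4 and Irf8.

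The ligand varied with the members across arrays. Ifng, which encodes interferon gamma, ranged from 6.90 to 7.94 in ABX and from 6.68 to 7.26 in H2O tumours at 0 h, and from 6.92 to 7.38 in ABX and from 6.91 to 7.59 in H2O tumours at 6 h. At 18 h it was at 6.6, 8.76, 7.87, 7.06 and 7.55 in ABX and at 7.45, 8.13, 6.79, 8.67 and 7.40 in H2O tumours. Its highest and lowest 18 h arrays were the same as for the members in both groups. Its correlation with the mean of the 6 members was 0.91 over 30 arrays (Spearman 0.806), 0.904 with group means removed and 0.829 without the 2 arrays farthest from the median. Ifng itself passed in none of the comparisons described here: 18 h minus 0 h was 0.33 ± 0.30 in ABX tumours (adjusted p = 0.824) and 0.69 ± 0.30 in H2O tumours (adjusted p = 0.133), and ABX minus H2O was -0.23 ± 0.30 at 6 h (adjusted p = 0.681). ABX 6 h array 5, high in all members, was the lowest of its group for Ifng at 6.92. The mean of 20 type I interferon genes and targets was highest of its group on that array, at 8.62 (group median 7.94). Over 30 arrays that mean had a correlation of 0.852 with the members (Spearman 0.855). The part of either kind of interferon in the member values was not tested.

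**Figure D5:**
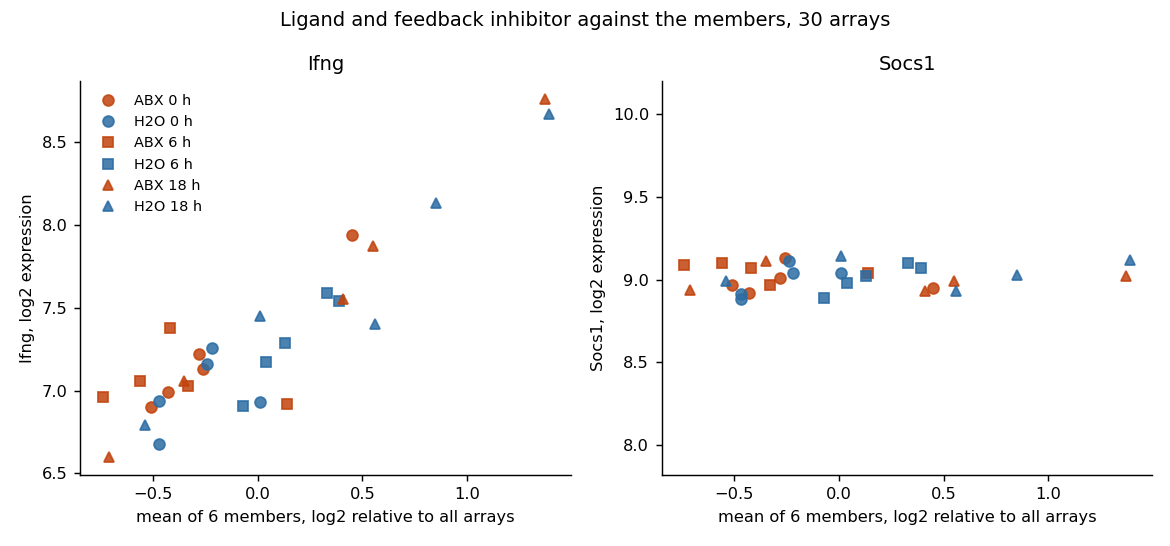
Log2 expression of Ifng (left) and of Socs1 (right) against the mean of the 6 members relative to all arrays (horizontal axis, log2), 1 point per array, ABX in red and H2O in blue, with symbols for 0, 6 and 18 h and vertical axes of equal length. Ifng climbs with the members (r = 0.91) and Socs1 stays near 9 (r = 0.113).

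Genes of the receptor and its signalling varied with the members to unequal degrees. The 10 measured had correlations between -0.465 for the phosphatase Ptpn6 and 0.91 for Ifng, among them the receptor's kinases Jak1 (0.709) and Jak2 (0.714) and the inhibitor Socs3 (0.579). The mean of all 10 had a correlation of 0.929. That mean includes Ifng and averages log2 values without scaling, so genes with a wide range weigh more in it. Ifngr1 kept between 11.13 and 11.40 on all arrays (r = 0.195 with the members), and Socs1, an inhibitor of the receptor's kinases, had an r of 0.113. Ifngr2 had an r of 0.275 with the members, and it was lower in ABX tumours at 18 h by -0.20 ± 0.06 (adjusted p = 0.0299), at 10.50 to 10.64 in ABX and 10.77 to 10.81 in H2O tumours. Irf2, which competes with Irf1 for the same DNA element, was lower in ABX tumours at 6 h by -0.18 ± 0.04 (adjusted p = 0.0267) and at 18 h by -0.18 ± 0.04 (adjusted p = 0.0142). It was at 9.99 to 10.13 in ABX and 10.19 to 10.34 in H2O tumours at 18 h. Both genes had lower means in ABX tumours at 0 h as well, without passing. There ABX minus H2O was -0.101 ± 0.045 for Irf2 (limma adjusted p = 0.706) and -0.133 ± 0.057 for Ifngr2 (adjusted p = 0.654). At 6 h Ifngr2 differed by -0.032 ± 0.057 (adjusted p = 0.768). Irf8, an interferon gamma responsive factor of myeloid cells, had an r of 0.808 with the members and passed in none of these comparisons (18 h ABX minus H2O -0.31 ± 0.18, adjusted p = 0.345). Irgm2 has no row of its own and was not fitted.

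Over 30 arrays the 10 other genes with the highest correlation with the mean of the 6 were Gm12250, another immunity-related GTPase (0.976), Gbp4 (0.968), the chemokine Cxcl9 (0.966), Gbp9 (0.957), Gbp8 (0.952), Parp14 (0.947), Gm4951 (0.944), the noncoding transcript AW112010 (0.944), the chemokine Cxcl10 (0.941) and Gm4841 (0.926). Of these 10, 5 are in the list of other GTPases and 3 in that of other interferon gamma targets, and AW112010 and Gm4841 are in neither. Of 19932 genes compared, 16 had a correlation above 0.9 and 72 above 0.8, and the median was -0.111. Cxcl9, which draws activated T cells, was at 7.59, 11.28, 10.41, 8.62 and 9.76 in ABX and at 9.77, 10.54, 8.02, 11.49 and 9.88 in H2O tumours at 18 h, with the same arrays at the top and bottom as the members. Its 18 h minus 0 h difference in H2O tumours was 1.46 ± 0.55 (adjusted p = 0.0789) and that of Cxcl10 was 0.69 ± 0.41 (adjusted p = 0.313), and at 6 h ABX minus H2O was -1.03 ± 0.55 for Cxcl9 (adjusted p = 0.302) and -0.44 ± 0.41 for Cxcl10 (adjusted p = 0.557).

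Among 9 other interferon-inducible GTPases with a row of their own, 2 rose between 0 and 18 h in H2O tumours: Gbp4 by 1.01 ± 0.33 (adjusted p = 0.0417) and Mx2 by 0.32 ± 0.10 (adjusted p = 0.0353). Mx2 was dim, at the 14.7th percentile of all genes, and had an r of 0.353 with the members, against 0.968 for Gbp4. All 9 were above 0 for 18 h against 0 h in H2O tumours, with a median of 0.45. Of 20 other interferon gamma targets 10 rose and 0 fell there, with a median of 0.24. Over all genes 14.1% passed in this comparison and 6.18% rose, the background for each of these lists. The 4 with the smallest p were the adhesion molecule Icam1 (0.64 ± 0.06, adjusted p = 3.97e-07), the peptide transporter subunit Tap2 (0.20 ± 0.05, adjusted p = 0.00357), Slfn2 (0.44 ± 0.11, adjusted p = 0.00551) and the inflammatory protease Casp1 (0.30 ± 0.08, adjusted p = 0.00699). These 4 genes rose by less than Gbp5, with smaller SEs. Of 20 type I interferon genes and targets 3 rose (Bst2 by 0.47 ± 0.05, Oas1a by 0.37 ± 0.11 and Usp18 by 0.51 ± 0.17), of 10 other interferon regulatory and related factors 1 rose (Nlrc5 by 0.27 ± 0.07), of 12 inducers of interferon gamma 1 rose (Il12rb1 by 0.22 ± 0.07), and of 10 ligand, receptor and signalling genes 0 did.

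In ABX tumours only Bst2 of all these genes passed between 0 and 18 h (0.25 ± 0.05, adjusted p = 0.00309), where 1.22% of all genes did. At 18 h the other interferon gamma targets lower in ABX than in H2O tumours were Icam1 (-0.32 ± 0.06, adjusted p = 0.00357), the peptide transporter subunit Tap1 (-0.26 ± 0.07, adjusted p = 0.0152) and Slfn2 (-0.41 ± 0.11, adjusted p = 0.0172), and 0 of that list were higher, so 3 of 20 passed where 7.85% of all genes did. Bst2 was lower by -0.33 ± 0.05 (adjusted p = 0.000186) and Il18r1, a chain of the receptor for the interferon gamma inducer interleukin 18, by -0.46 ± 0.11 (adjusted p = 0.008). At 6 h Il18r1 was lower by -0.64 ± 0.11 in ABX tumours (adjusted p = 0.00142), and at 0 h it differed by -0.46 ± 0.11 (adjusted p = 0.103). Herc6, an interferon-inducible gene, was lower at 6 h by -0.33 ± 0.08 (adjusted p = 0.0195), in a comparison where 3.77% of all genes passed. Of 9 other GTPases 0 passed for ABX against H2O at 6 or 18 h, and all 9 were below 0 at both times, with medians of -0.22 and -0.21.

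Markers of NK and cytotoxic cells were taken as a list. The mean of 12 NK and cytotoxic cell markers ranged from 6.41 to 6.62 in ABX and from 6.42 to 6.69 in H2O tumours at 0 h, from 6.24 to 6.84 in ABX and from 6.55 to 6.75 in H2O tumours at 6 h, and from 6.39 to 7.01 in ABX and from 6.52 to 7.01 in H2O tumours at 18 h. Its highest and lowest 18 h arrays were those of the members, and its correlation with their mean was 0.868 (Spearman 0.818). Its members ran from the chemokine Ccl5 (0.9), the protease Gzmb (0.792) and the receptor Klrk1 (0.780) down to Prf1 (0.424), Klrb1c (0.401), Klra8 (0.343), Cd8b1 (0.054) and Cd8a (-0.393). The defining receptors Ncr1 (0.631) and Klrd1 (0.667) were dim, at the 16.5th and 16.6th percentile of all genes. Klrk1 and Klra8 were dimmer still, at the 12.0th and 9.6th percentile. Of the 12, 0 passed for 18 h against 0 h in H2O tumours or for ABX against H2O at 6 or 18 h. The mean of 12 macrophage and monocyte markers ranged from 9.10 to 9.61 in ABX and from 9.36 to 9.85 in H2O tumours at 0 h, from 9.05 to 9.79 in ABX and from 9.29 to 9.64 in H2O tumours at 6 h, and from 8.94 to 9.64 in ABX and from 9.54 to 9.96 in H2O tumours at 18 h. Its correlation with the members was 0.624. Of those 12, 2 were lower in ABX tumours at 18 h (Cd68 by -0.53 ± 0.10 and C1qb by -0.51 ± 0.11), where 7.85% of all genes passed, and all 12 were below 0 at 0, 6 and 18 h (medians -0.19, -0.25 and -0.40). Between 0 and 18 h in H2O tumours 2 of the 12 rose (Mpeg1 by 0.64 ± 0.18 and Lyz2 by 0.47 ± 0.13), where 6.18% of all genes rose. Endothelial markers had a correlation of 0.612 with the members, and 4 of 8 rose between 0 and 18 h in H2O tumours, where 6.18% of all genes rose. T cell markers (0.108), dendritic cell markers (0.208), keratinocyte markers (-0.216) and skeletal muscle markers (0.042) had weak correlations. The part of these cells in the member values was not tested.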

How the data were processed

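RNA from the tumours was hybridised to 30 arrays, and the labels do not say that each came from a separate mouse. The values the authors deposited are log2 expression. Partek 6.6 is named, without its role, in the submitters' processing notes, and probe summarisation and normalisation are not given in the sources used here. Of 28853 rows, 21775 had 1 gene symbol and 1578 had several. Rows were used as deposited, 1 per gene (highest mean), and rows with several symbols were kept only in an alternative fit over 21333 genes, which gives the values of the 3 shared rows.

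The 30 arrays were fitted together as 6 groups, gene by gene, in limma 3.58.1 under R 4.3.3 (functions lmFit and eBayes, 24 residual degrees of freedom), with 12 two-sided comparisons and Benjamini-Hochberg adjustment over all 19938 genes within each, and a threshold of 0.05. On simulated data for ABX against H2O at 18 h the fit recovered 90% of genes changed by 0.5 and 98% of those changed by 1. It made 16 false calls among unchanged genes. These recovery rates describe genes in general, whose median residual SD was 0.115. The simulated noise was independent between genes and equally wide in all groups, unlike the scatter of the members. Residual SDs of the members lay between 0.341 for Irf1 and 0.865 for Iigp1, so the rates cannot be carried over to them. Iigp1 differed by 0.987 between 18 and 0 h in H2O tumours and did not pass. A member that did not pass may therefore still have changed. The number of arrays limits the precision. Members and gene lists were chosen with earlier results of these data known. Named beside the members were the main pathway genes, up to 4 passing genes per interferon list with the smallest p for 18 h against 0 h and for ABX against H2O at 18 h, and the 10 most correlated genes. Where ± has no unit it is the SE for a difference and the SD for a group mean. Array numbers name samples and carry no order or pairing. Alternatives were other scalings, row choices, filters, error models and left-out arrays.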

Additional observations from a re-analysis of the deposited data

Results flagged for a closer look

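Of 54 combinations of a member row and a group, 5 held 1 array far from the other 4, where chance gives about 1 in 20 groups. Rows and arrays are shared, so these are not separate events. In ABX 0 h array 4, the row of Gbp2 and Gbp2b was at 9.45 while the other 4 arrays lay between 8.09 and 8.39. On the same array Gbp5 was at 7.31 (others 6.33 to 6.52), the row of Igtp and Irgm2 was at 8.86 (others 7.59 to 7.84) and Iigp1 was at 8.17 (others 6.65 to 7.03). Ifng on that array was at 7.94, the highest of its group. Iigp1 on ABX 6 h array 5 was at 7.79, with the other 4 arrays between 6.40 and 6.79, and Cxcl10 there was at 8.88.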

How the results depend on the processing

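The number of members passing was recomputed 467 times over 12 comparisons. It was unchanged in 435, and 10 of the 12 comparisons stayed at 0 members under every alternative run. For 18 h against 0 h in H2O tumours it was 1 as reported. It was 0 with array medians subtracted, with a mean-variance trend and robust prior, and with only the groups of the comparison fitted. It was also 0 without the 3 arrays with high skin or muscle markers (H2O 6 h array 1 and ABX 6 h arrays 1 and 5), and 2 with array weights (Gbp5 and Irf1). Leaving out each array in turn gave 0 to 5: 0 for 21 arrays, 1 for 4, 2 without ABX 0 h array 4, ABX 18 h array 1 or H2O 18 h array 1, 3 without ABX 18 h array 2 and 5 without H2O 18 h array 3. With quantile normalisation the 1 that passed was Irf1 (adjusted p = 0.0316) and not Gbp5 (0.0705). For 6 h against 0 h in H2O tumours, 1 passed with only the groups of the comparison fitted (Irgm1, adjusted p = 0.047). In that limma fit the adjusted p was 0.0628 for Gbp3, 0.0702 for Gbp5, 0.131 for Iigp1, 0.178 for Gbp7 and 0.191 for Irf1. The causes were not tested. Among 4095 recomputed member values, 0 that passed changed sign, and 28 that did not pass did so when 1 array was left out. Pairing of the arrays is not given by the labels. Signal over background could not be judged from these values.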

Other observations

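Irf1 has a second array row that was not used. The second row ranged from 7.06 to 7.28 in ABX and from 7.16 to 7.37 in H2O tumours at 18 h, where the first ranged from 9.02 to 10.41 in ABX and from 9.27 to 10.50 in H2O tumours. Which part of the transcript each row reads is not given in the files.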
